A study of Mus musculus with 7 samples.

Results

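The ligands of the vascular endothelial growth factor (VEGF), angiopoietin and apelin systems, with the apelin receptor, were read in the hearts of mice with myocarditis of the kind caused by immune checkpoint inhibitors (ICI) and in control hearts. The set holds 8 genes, Vegfa, Vegfb, Vegfc, Pgf, Angpt1, Angpt2, Apln and Aplnr, each taken by its symbol from a table of 23420 gene rows, and all 8 were found. Bulk RNA sequencing had been run on 7 hearts. The 4 control mice were Ctla4+/+;Pdcd1-/- and the 3 ICI-myocarditis mice were Ctla4+/-;Pdcd1-/-, so both groups lacked Pdcd1 and differed by 1 copy of Ctla4. All mice were untreated and 3 to 6 weeks old, a range given for the groups and not for each animal. The source is labelled whole heart, while the extraction protocol names cardiac ventricle. The myocarditis arises here from inherited loss of Pdcd1 and of 1 copy of Ctla4, not from an inhibitor given to an adult animal.

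VEGF proteins are secreted by muscle, stromal and immune cells and act on receptor tyrosine kinases of the endothelium. Vegfa drives vessel growth and permeability mainly through Kdr (VEGF receptor 2), Vegfb and Pgf bind Flt1 (VEGF receptor 1), and Vegfc acts on lymphatic endothelium through Flt4 (VEGF receptor 3). Angpt1, made by cells around the vessel, activates the endothelial receptor Tek (Tie2) and stabilises vessels, whereas Angpt2, released by endothelium, can oppose it. Apelin, the peptide product of Apln, signals through the G protein-coupled receptor Aplnr, and both are found in cardiac endothelium, with effects on contractility and vessel tone.

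Libraries held between 20931730 and 39037176 reads assigned to genes. Values below are normalized counts, that is, the reads of each library divided by its own size factor. A fold change compares ICI-myocarditis with control after the transform log2(normalized count + 1), and comes from limma fitted to the 15258 genes that reached 10 normalized counts in 3 libraries or more. A gene was called at an adjusted p below 0.05, and all 8 members passed the filter. The labels number the hearts as replicates and do not say how the animals were related, so p-values measure the spread between these hearts. Pdcd1 reads were present in all libraries despite the Pdcd1-/- label, from 2.50 to 244 normalized counts in the controls and from 1096 to 1481 in ICI-myocarditis, and Ctla4 was also higher in ICI-myocarditis (29.2 to 113 against 251 to 373). Gene totals do not show which exons were read, so neither gene checks the genotype. Control 2 stood apart from the other controls in T cell genes: the list of T cell markers summed to 1158 normalized counts there, 96.3 to 144 in the other controls and 5464 to 8319 in ICI-myocarditis.

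Of the 8 members, 7 had a fold change below 0, and 1, Aplnr, was called, lower in ICI-myocarditis. The background for that count is that 4.00% of all genes tested were called lower and 15.7% were called in either direction, and a single call among 8 genes cannot be set apart from it. The median log2 fold change was -0.75 over the members and -0.02 over all genes tested. Of the 15258 genes tested, 7917 had a fold change below 0. At an unadjusted p below 0.05, 5 members were lower, beside 12.4% of all genes lower and 30.1% in either direction. edgeR called 0 members, with 5 at an unadjusted p below 0.05, where it called 3.68% of all genes lower, and DESeq2 called 5 members where it called 8.40% of all genes lower. With limma and 1 library left out, 0 members were called without ICI-myocarditis 1 or 3 or control 1, 2 or 3, and 2 without ICI-myocarditis 2 or control 4. Every ICI-myocarditis library lay below every control for 2 members, Vegfa and Pgf, and for 11.3% of all genes. Of the calls over all genes, 610 of 2397 were lower, against 335 of 2169 when values were scaled by library size only.

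**Figure D1:**
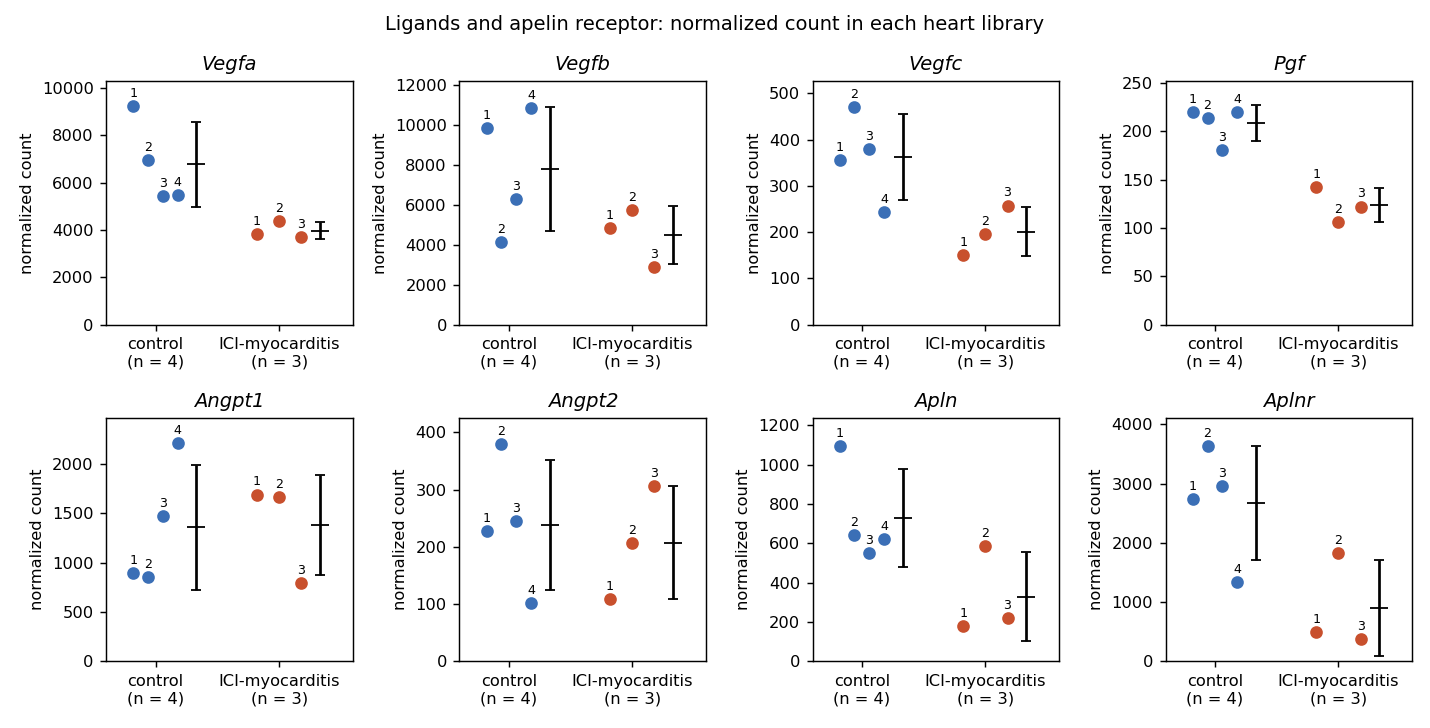
Normalized count (vertical axes, from 0) of each of the 8 genes in the 4 control and 3 ICI-myocarditis libraries; digits are replicate numbers, and black marks give the group mean with its SD. All 3 ICI-myocarditis points lie below the 4 control points for Vegfa and Pgf, while the groups overlap broadly for Angpt1 and Angpt2.

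Levels between genes were compared per kilobase of exon, with exon lengths from GENCODE M21, which may not be the annotation the counts were made on. In controls Vegfb was the most abundant of the set, at 4849 ± 1939 normalized counts per kilobase (SD, n = 4), followed by Vegfa at 1583 ± 418 and Aplnr at 722 ± 260. Angpt1 (261 ± 122), Apln (231 ± 79.2) and Vegfc (148 ± 38.2 normalized counts per kilobase) followed, and Pgf (71.8 ± 6.45) and Angpt2 (64.5 ± 30.9) were lowest. The ranges of neighbouring genes did not overlap between Vegfb and Vegfa, between Vegfa and Aplnr, or between Vegfc and Pgf. The other neighbours in that order overlapped. In ICI-myocarditis Vegfb (2798 ± 905 per kilobase, SD, n = 3) and Vegfa (929 ± 82.3) again led, but Aplnr (245 ± 219) lay at the level of Angpt1 (266 ± 97.6).

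**Figure D2:**
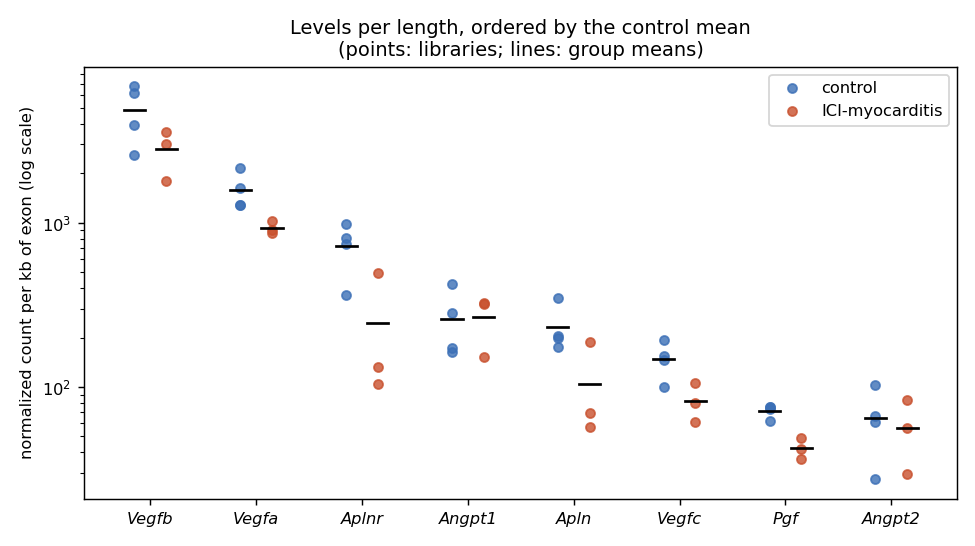
Normalized count per kilobase of exon (log axis) of each gene, ordered by the control mean, with 1 point per library and a line at each group mean. Vegfb is highest in both groups at 4849 and 2798 per kilobase, and the control points of Aplnr, Angpt1 and Apln form a run of overlapping ranges.

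Upstream sequences were read from RefSeq windows on build GRCm38.p6, which held 5 of the 8 members (Vegfa, Vegfb, Vegfc, Pgf and Apln). The 250 bases before the first listed start site are shown for Vegfa, Vegfc and Apln, 3 ligands with an unadjusted p below 0.05 whose windows hold no annotated exon, so that they can be compared. None of these 3 passed adjustment. They lie at chr17:46032378-46032627 (minus strand), chr8:54077282-54077531 (plus strand) and chrX:48034854-48035103 (minus strand), and are written 5′ to 3′ on the strand of the gene. Capitals mark GC boxes, searched as GGGCGGG on both strands.
Vegfa: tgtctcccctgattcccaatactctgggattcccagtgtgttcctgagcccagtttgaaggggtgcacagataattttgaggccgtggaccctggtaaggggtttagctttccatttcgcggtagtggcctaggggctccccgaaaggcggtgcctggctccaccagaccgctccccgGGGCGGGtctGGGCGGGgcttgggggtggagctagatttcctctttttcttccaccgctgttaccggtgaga
Vegfc: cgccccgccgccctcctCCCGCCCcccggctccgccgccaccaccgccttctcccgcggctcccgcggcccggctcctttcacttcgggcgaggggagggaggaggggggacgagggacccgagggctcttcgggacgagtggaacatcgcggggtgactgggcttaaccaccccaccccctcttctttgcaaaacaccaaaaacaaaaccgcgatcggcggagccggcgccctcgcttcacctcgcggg
Apln: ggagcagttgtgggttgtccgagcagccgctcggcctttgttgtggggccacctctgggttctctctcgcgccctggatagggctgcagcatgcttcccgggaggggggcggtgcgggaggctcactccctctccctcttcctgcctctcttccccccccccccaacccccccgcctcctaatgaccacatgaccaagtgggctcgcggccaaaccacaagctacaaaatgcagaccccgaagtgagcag
The GC box, a motif bound by SP1-type factors, occurred 2 times in the Vegfa window, 1 time in the Vegfc window and 0 times in the Apln window. Over all 32851 RefSeq windows of this length, 23.4% held at least 1. The core of the hypoxia response element, searched as ACGTG or GCGTG on both strands, had 0 matches in each of the 3 windows, while 38.6% of all windows held it. Other windows of the set did hold it. There were 2 matches and 1 GC box at the second Vegfa start site, 2 matches and 1 GC box for Vegfb, and 1 match and 2 GC boxes at the first Pgf start site. The second Pgf window held neither. The window at the second Vegfa start site and both Pgf windows overlap annotated exons, so their matches may lie in exon sequence. The Vegfb window holds no annotated exon. GC content was 59.2% for Vegfa, 71.6% for Vegfc and 65.2% for Apln. A match is a run of letters only, and a missing match says only that the letters are not in this window.

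Vegfa, the main angiogenic ligand, lies on chromosome 17 (46016993 to 46032369, GRCm38, minus strand). Its normalized counts were 9257, 6952, 5450.3 and 5480.05 in the control hearts (1 to 4) and 3852, 4381 and 3713 with ICI-myocarditis. All 3 ICI-myocarditis hearts were below all 4 controls, and control 1 was the highest. The group means were 6785 ± 1791 (SD, n = 4) and 3982 ± 352 (SD, n = 3). The log2 fold change was -0.74 (SE 0.24), which did not pass adjustment (limma adjusted p = 0.0729).

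Pgf, placental growth factor, lies on chromosome 12 (85166635 to 85177790, minus strand) and varied least of the set among controls. Its normalized counts were 219.8, 213, 181 and 220.2 in controls and 142, 107 and 122 in ICI-myocarditis. The groups did not overlap, and control 3 was the lowest control. Means were 209 ± 18.7 (SD, n = 4) and 124 ± 17.9 (SD, n = 3), with a log2 fold change of -0.75 (SE 0.23, adjusted p = 0.0525 by limma). Among all pairs of members, Vegfa and Pgf had the most alike patterns over the 7 libraries, with a mean absolute difference of 0.22 between their centred log2 values.

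Vegfc, the lymphatic growth factor on chromosome 8 (54077606 to 54187096, plus strand), had 356, 471, 379.7 and 244 normalized counts in the controls and 150.4, 196 and 257 in ICI-myocarditis. The groups overlapped through control 4, which lay below ICI-myocarditis 3. The means of 363 ± 93.5 and 201 ± 53.8 gave a log2 fold change of -0.84 (SE 0.28, adjusted p = 0.0781 by limma). Without control 4 it was -1.02 (adjusted p = 0.0359 by limma). Vegfb, on chromosome 19 (6982473 to 6987651, minus strand), had 9845, 4148.5, 6292 and 10845 normalized counts in the controls and 4859, 5725 and 2891 in ICI-myocarditis. Control 2 lay inside the ICI-myocarditis range, and the log2 fold change of -0.75 (SE 0.38, adjusted p = 0.222 by limma) had a 95% interval from -1.61 to 0.11. The order of the libraries by Vegfb was close to their order by the cardiomyocyte marker list (Myh6, Actc1 and 6 others), whose summed level ran from 1275070 in control 2 to 2564470 in control 4 and from 788330 in ICI-myocarditis 3 to 1342060 in ICI-myocarditis 2. Its part in the Vegfb values was not tested.

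The Flt1 ligands were also compared with each other within each library. The log2 ratio of Pgf to Vegfb was -5.12 ± 0.60 (SD, n = 4 controls) and -5.12 ± 0.59 (SD, n = 3 ICI-myocarditis hearts), a difference of -0.0034 (exact permutation p = 0.971, two-sided, 35 splits, adjusted over 3 ratios 0.971). With 1 library left out it ran from -0.29 to 0.30. The smallest p these splits allow is 0.0286.

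The VEGF receptors were read as part of the wider pathway. Of the 5 receptors and co-receptors, 1 was called lower and 0 were called higher, with a median log2 fold change of -0.56. Beside these counts, 4.00% of all genes tested were called lower and 11.7% higher. Kdr, the chief signalling receptor for Vegfa, had 15634, 23454, 15178 and 6347 normalized counts in the controls and 3164, 5432 and 4890.2 in ICI-myocarditis. All 3 ICI-myocarditis hearts lay below all controls, of which control 4 was the lowest. Kdr fell by 1.65 on the log2 scale (SE 0.42, adjusted p = 0.0301 by limma), a call lost in 6 of 18 alternatives. The adjusted p by limma was 0.0987, 0.0600 and 0.0823 without ICI-myocarditis 1, 2 and 3, 0.0831 without control 1 and 0.0861 without control 3, and 0.0818 with scaling by library size only. Flt1, the receptor of Vegfb and Pgf, had a log2 fold change of -0.84 (SE 0.37, adjusted p = 0.164 by limma), with control 4 (3869) inside the ICI-myocarditis range of 2744 to 5105 normalized counts; without control 4 it was -1.11 (adjusted p = 0.0494 by limma). The co-receptors Nrp1 and Nrp2 had log2 fold changes of -0.48 and -0.56 (limma adjusted p = 0.269 and 0.397). Flt4, the Vegfc receptor, had a log2 fold change of -0.07 (SE 0.39, adjusted p = 0.932 by limma), and its sign turned with scaling by library size only (0.088).

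Figf, the symbol under which the table lists Vegfd, the other ligand of Flt4, was on the opposite side. Its normalized counts were 52.4, 67.8, 73.7 and 31.3 in controls and 135, 93.5 and 259 in ICI-myocarditis. Every ICI-myocarditis heart lay above every control, as for 17.3% of all genes. The log2 fold change was 1.45 (SE 0.43, adjusted p = 0.0508 by limma). It passed in 5 of 18 alternatives, with adjusted p-values from 0.00571 to 0.222, among them the fit without control 2 (0.0362).

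Angpt1, on chromosome 15 (42424723 to 42676977, minus strand), had 898, 851, 1475 and 2211 normalized counts in the controls and 1690.3, 1662 and 796 in ICI-myocarditis. The groups overlapped broadly, with the highest library a control and the lowest an ICI-myocarditis heart. The log2 fold change of 0.06 (SE 0.39, adjusted p = 0.941 by limma) had a 95% interval from -0.82 to 0.94, and its sign turned in 4 of 18 alternatives. An antisense gene, Gm17473, overlaps an exon of Angpt1, and whether the counting used strand is not given in the sources used here.

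Angpt2, on chromosome 8 (18690263 to 18741562, minus strand), lies within Mcph1 on the other strand, without exon overlap. Its normalized counts were 227, 379.9, 245 and 101 in controls and 109, 207 and 306 in ICI-myocarditis. The lowest library was a control and so was the highest. The log2 fold change was -0.17 (SE 0.48, adjusted p = 0.849 by limma), with a 95% interval from -1.24 to 0.90, and its sign turned in 2 of 18 alternatives.

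The extremes of the angiopoietins lay in the same libraries but at opposite ends. Control 4 had the highest Angpt1 and the lowest Angpt2 of the controls, and control 2 the lowest Angpt1 and the highest Angpt2. In ICI-myocarditis, heart 3 had the lowest Angpt1 and the highest Angpt2, and heart 1 the reverse. The log2 ratio of Angpt2 to Angpt1 was -1.98, -1.16, -2.59 and -4.43 in controls and -3.94, -2.997 and -1.38 in ICI-myocarditis. Its group difference of -0.23 was far inside that spread (exact permutation p = 0.8, two-sided, adjusted over 3 ratios 0.971). Read across the marker lists, the cardiomyocyte list was lowest in control 2 among controls and in ICI-myocarditis 3 in its group. These were the libraries with the lowest Angpt1. The list was highest in control 4. Other libraries did not follow that order. Control 1 had a high list sum (2221140) but an Angpt1 of 898, near the 851 of control 2. In ICI-myocarditis the list was highest in heart 2 (1342060, against 1184460 in heart 1), while Angpt1 was highest in heart 1. The part of tissue make-up in these values was not tested.

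Among the angiopoietin receptors and their phosphatase, 1 was called lower, beside 4.00% of all genes tested. The median over these 3 genes was -1.02. Tek had 4939, 5970.5, 4603 and 2512 normalized counts in the controls and 1758, 2165 and 2164 in ICI-myocarditis, with no overlap. Tek fell by 1.09 on the log2 scale (SE 0.29, adjusted p = 0.0357 by limma), a call lost in 6 of 18 alternatives. The adjusted p by limma was 0.106, 0.0872 and 0.0967 without ICI-myocarditis 1, 2 and 3, 0.0936 without control 1 and 0.0975 without control 3, and 0.134 with scaling by library size only. Tie1, the orphan partner receptor of Tek, also had groups that did not overlap, with a log2 fold change of -0.99 (SE 0.32, adjusted p = 0.0674 by limma). Ptprb, the endothelial phosphatase that acts on Tek, had a log2 fold change of -1.02 (SE 0.36, adjusted p = 0.0846 by limma). Without control 4, Tie1 (-1.24, adjusted p = 0.0183) and Ptprb (-1.31, adjusted p = 0.0189) passed by limma. A difference in fold change between receptors and ligands was not tested.

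Aplnr, on chromosome 2 (85136225 to 85139923, plus strand), was the called member. Its normalized counts were 2738, 3630.4, 2967 and 1342 in controls and 492, 1838 and 386 in ICI-myocarditis. ICI-myocarditis 1 and 3 lay below every control, whereas ICI-myocarditis 2 lay above control 4, so the groups overlapped. Means were 2669.5 ± 962 (SD, n = 4) and 905 ± 809 (SD, n = 3). Aplnr fell by 1.83 on the log2 scale (SE 0.53, 95% interval from -3.03 to -0.63, limma adjusted p = 0.0468).

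The Aplnr call was close to the threshold and was lost in 9 of 18 alternatives, with adjusted p-values from 0.00693 to 0.189 and the sign below 0 in all 18. It was lost without ICI-myocarditis 1 (limma adjusted p = 0.133), without ICI-myocarditis 3 (0.189) and without control 1 (0.113), control 2 (0.0628) or control 3 (0.122). Without ICI-myocarditis 2 the log2 fold change of Aplnr was -2.52 (limma adjusted p = 0.0144). edgeR's quasi-likelihood test on the recovered reads gave -1.59 (adjusted p = 0.0938). The smallest change was -1.18, with limma-voom quality weights (adjusted p = 0.111). The call was also lost by limma with scaling by library size only (-1.63, adjusted p = 0.0933) and with no filter on low values (adjusted p = 0.0502).

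Apln, the apelin gene on the X chromosome (48025146 to 48034853, minus strand), had 1098, 643, 550.5 and 624 normalized counts in the controls and 180.1, 588 and 219 in ICI-myocarditis. As for Aplnr, ICI-myocarditis 1 and 3 were below every control and ICI-myocarditis 2 was not, since it lay above control 3. Means were 729 ± 249 (SD, n = 4) and 329 ± 226 (SD, n = 3), with a log2 fold change of -1.30 (SE 0.41, adjusted p = 0.0634 by limma). Without ICI-myocarditis 2 the value for Apln was -1.82 (limma adjusted p = 0.0176), without ICI-myocarditis 1 it was -0.97 (0.185), and with limma-voom quality weights it was -0.68 (0.244). The log2 ratio of Apln to Aplnr was -1.84 ± 0.73 (SD, n = 4 controls) and -1.30 ± 0.43 (SD, n = 3 ICI-myocarditis hearts), a difference of 0.53 within the spread (exact permutation p = 0.343, two-sided, adjusted over 3 ratios 0.971).

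Genes with a pattern most like Aplnr were sought among 11470 genes with a mean of at least 100 normalized counts, leaving out predicted genes without a given name, by the mean absolute difference of centred log2 values over the 7 libraries. The closest were Prnd, which encodes the prion-like protein doppel (0.17), Pcdh12, an endothelial protocadherin (0.28), and Mycn, a MYC family transcription factor (0.30), where the median gene was at 1.07. Prnd had 365, 421, 415 and 236 normalized counts in the controls and 67.5, 337 and 55.8 in ICI-myocarditis, so ICI-myocarditis 2 was again the high library of its group. The log2 fold changes were -1.68 for Prnd, -1.97 for Pcdh12 and -1.78 for Mycn (limma adjusted p = 0.0765, 0.0121 and 0.0580). Without ICI-myocarditis 2, Prnd was -2.49 (adjusted p = 0.0117) and Mycn -2.28 (0.0383), and without control 4 Mycn was -2.22 (0.0131); Pcdh12 had 0.0552 without ICI-myocarditis 3, all by limma. With limma-voom quality weights Prnd was -0.87 (adjusted p = 0.263). Since they were chosen for likeness to Aplnr, these values are a description.

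**Figure D3:**
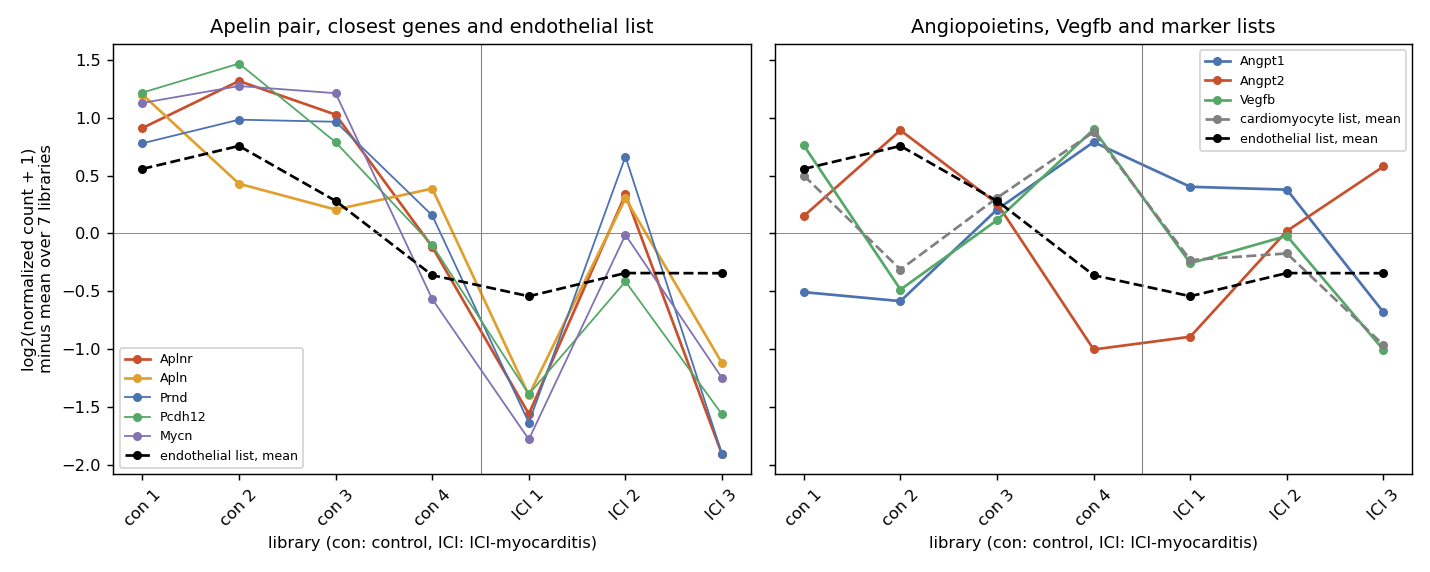
log2(normalized count + 1) minus its mean over the 7 libraries (vertical axis) by library (con: control, ICI: ICI-myocarditis); each line joins the values of 1 gene or of the mean of 1 marker list and implies no order of libraries. Left, Aplnr, Apln, Prnd, Pcdh12 and Mycn are each higher in ICI-myocarditis 2 than in 1 and 3, although Pcdh12 there (757 normalized counts) stays below every control, while the endothelial list is about level across these 3. Right, control 4 and ICI-myocarditis 3 show Angpt1 and Angpt2 at opposite ends, and Vegfb runs close to the cardiomyocyte list.

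The endothelial marker list, 12 genes including Cdh5 and Pecam1, had a median log2 fold change of -0.77, with 3 called lower and 0 called higher. Its summed level was 33416 to 74367 normalized counts in controls, lowest in control 4, and 31304 to 40980 in ICI-myocarditis, with no marker at 0 in any library. In bulk tissue, fewer endothelial cells and less RNA per cell cannot be told apart. The pericyte and smooth muscle list, 9 genes including Rgs5 and Abcc9, had a median of -0.67 with 4 called lower, and summed to 59511 to 83287 in controls and 28946 to 39172 in ICI-myocarditis. The cardiomyocyte list of 8 genes had a median of -0.83 with 0 called by limma, 2 at an unadjusted p below 0.05, 0 called by edgeR and 3 by DESeq2. The macrophage list of 7 genes was called higher throughout, with a median of 2.36 and sums of 11506 to 15865 in controls and 46043 to 69357 in ICI-myocarditis. The fibroblast list of 6 had 2 called higher and a median of 0.61, with sums of 45266 to 68595 in controls and 109875 to 154774 in ICI-myocarditis. Of 6 lymphatic genes, Ccl21a was listed at 0 in all 7 libraries, and 1 of the 5 tested, Prox1, was called lower. The 5 had log2 fold changes from -1.05 (Prox1) to 0.79, with a median of -0.30, so the list did not move as a whole. Prox1 had by far the highest control mean of the list (2545 normalized counts, with Lyve1 next at 564). Which cells its reads came from was not tested. Beside these counts, 4.00% of all genes tested were called lower and 11.7% higher by limma. The part of the marker list shifts in the fold changes of the ligands and receptors was not tested.

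Across all 42 wider pathway genes found in the table, 4 were called lower (Kdr, Tek, Hey1 and Epas1) and 3 higher (Slc2a1, Pfkfb3 and Hmox1). Their median log2 fold change was -0.32. Of all genes tested, 4.00% were called lower, 11.7% higher and 15.7% in either direction. The counts of this list and its parts were not tested against those shares. With 1 library left out the count of wider pathway genes called ran from 2, without ICI-myocarditis 3, to 13, without control 2 or control 4. Fold changes below 0 were found for 7917 of all 15258 genes tested. Among the 11 endothelial genes that lie downstream of these receptors, 10 were below 0 and 1 was called. That gene was Hey1, a Notch target in endothelium, with 998, 771, 602 and 407 normalized counts in the controls and 262, 236 and 187 in ICI-myocarditis. All ICI-myocarditis hearts lay below all controls, and Hey1 fell by 1.54 on the log2 scale (SE 0.30, adjusted p = 0.0106 by limma), past the threshold in all 18 alternatives. Esm1, a gene of VEGF-stimulated tip cells, also had groups apart, at 35.03 to 147 and 16.4 to 26.7 normalized counts, with a log2 fold change of -1.68 (SE 0.50, adjusted p = 0.0510 by limma). Dll4, a Notch ligand, Nos3, the endothelial nitric oxide synthase, and Plvap, a fenestral protein, had log2 fold changes of -0.95, -0.82 and 0.56 (limma adjusted p = 0.141, 0.144 and 0.151). Without control 4 the adjusted p by limma was 0.0251 for Esm1, 0.0133 for Dll4 and 0.0343 for Nos3, and without control 2 it was 0.0484 for Esm1. The log2 fold change of Esm1 was -0.99 with TMM scaling (adjusted p = 0.0735) and -0.92 with scaling by library size only (adjusted p = 0.153), by limma. With 5 in place of 1 added before the log it was -1.52, and edgeR gave -1.93. A scaling factor moves all genes of a library alike on the log2 scale, save for the value added. TMM scaling moved the median of all genes only from -0.02 to -0.04. The smaller Esm1 values under the scaling settings therefore carry the effect of the value added to low counts, and not of scaling alone.

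Oxygen sensing was read because Vegfa, Apln and Flt1 are known targets of hypoxia-inducible factors. Epas1, which encodes HIF-2α and is abundant in endothelium, had 29550.2, 20890.5, 17843 and 19247 normalized counts in the controls and 6852, 10384 and 10324 in ICI-myocarditis. The groups were fully apart, and Epas1 fell by 1.25 on the log2 scale (SE 0.28, adjusted p = 0.0183 by limma), a call lost without any 1 of the ICI-myocarditis hearts. The adjusted p by limma was 0.0724, 0.05005 and 0.0508 without ICI-myocarditis 1, 2 and 3. Hif1a, encoding HIF-1α, had a log2 fold change of 0.26 (SE 0.23, adjusted p = 0.502 by limma), and Vhl, which targets both for degradation, had 0.42 (limma adjusted p = 0.198). The hypoxia response list of 13 genes had a median of 0.01, with 3 called higher and 0 called lower. Over all genes tested, 11.7% were called higher and 4.00% lower.

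The 3 called hypoxia response genes also respond to other stimuli. Hmox1, haem oxygenase, had 266 ± 12.0 normalized counts in the controls and 1169 ± 475 in ICI-myocarditis, and rose by 2.06 on the log2 scale (SE 0.25, adjusted p = 0.00303 by limma). Pfkfb3, a regulator of glycolysis, rose by 1.69 (limma adjusted p = 0.0162) and Slc2a1, the glucose transporter GLUT1, by 1.07 (limma adjusted p = 0.0162). All 3 genes were higher in every ICI-myocarditis heart than in any control, while Vegfa was lower in every one. The Pfkfb3 call was lost without ICI-myocarditis 3 (adjusted p = 0.0719), control 1 (0.0532) or control 3 (0.0568), and the Slc2a1 call without ICI-myocarditis 3 (0.0557) or control 3 (0.0548), by limma.

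**Figure D4:**
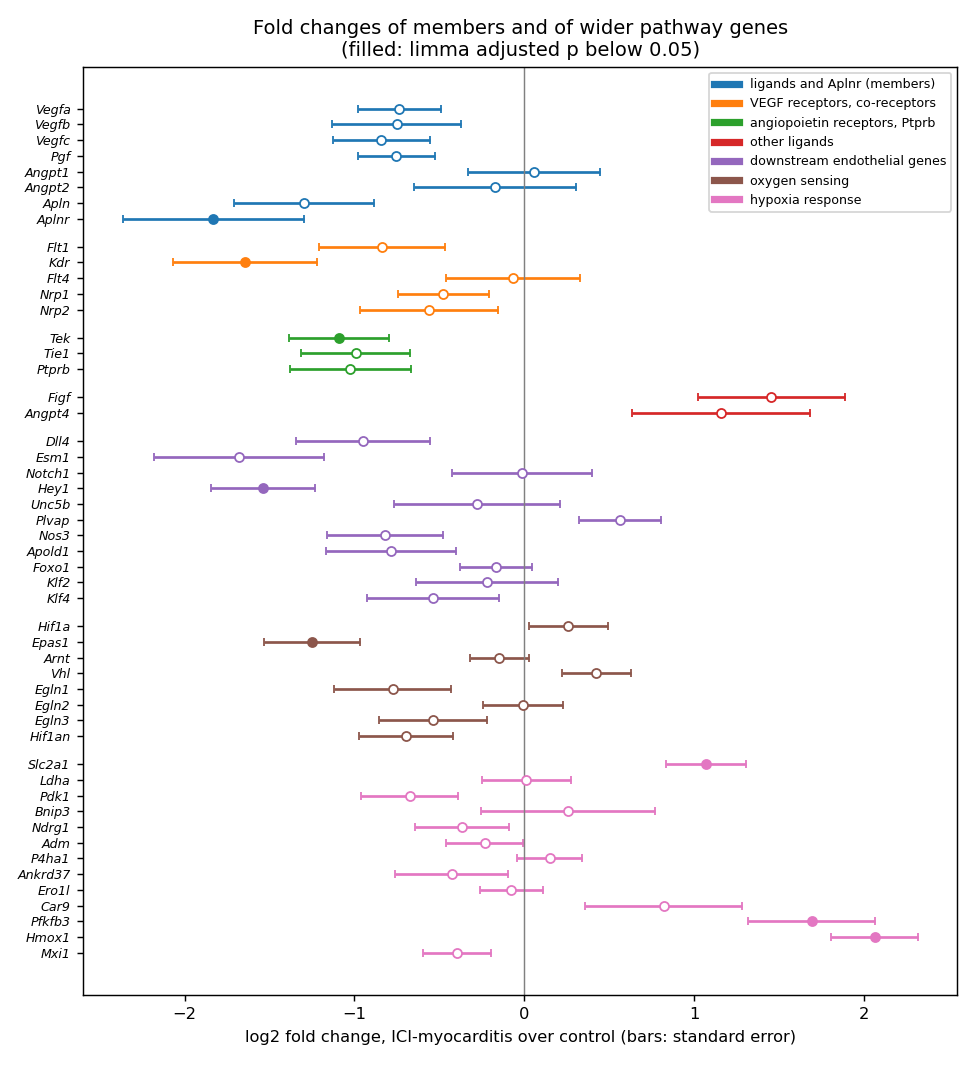
Log2 fold change of ICI-myocarditis over control (horizontal axis, bars are standard errors) for the 8 members and the tested wider pathway genes, coloured by list; filled points have a limma adjusted p below 0.05. Aplnr, Kdr, Tek, Hey1 and Epas1 are the filled points to the left, and Slc2a1, Pfkfb3 and Hmox1 those to the right.

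The authors' deposited table, made by their own comparison on the same libraries, gave more members an adjusted p below 0.05. In the authors' deposited table the log2 fold change and adjusted p were -0.76 and 0.00935 for Pgf, -0.77 and 0.0197 for Vegfa, -1.56 and 0.0227 for Aplnr, and -0.85 and 0.0377 for Vegfc. In the authors' deposited table Apln (-1.15, adjusted p 0.0510) and Vegfb (-0.79, adjusted p 0.142) were above that threshold, as were Angpt1 and Angpt2 (adjusted p 0.975 and 0.831). Of the 16882 genes with an adjusted p in the authors' deposited table, 20.2% were at that threshold in either direction and 7.35% were lower. It thus held 4 members lower where limma called 1, and both gave the same sign for all 8.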

How the data were processed

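Total RNA from 7 mouse hearts was sequenced as stranded, paired-end libraries of 150 bases, per the labels' protocols. STAR 2.7.3 and GRCm38 (mm10) are named in the submitters' processing notes. The counting program, annotation and use of strand are not given in the sources used here. Per library, the authors deposited a signal, gene read counts divided by 1 size factor. Dividing each column by its smallest value gave whole reads (tolerance 0.01) for 100% of values; the control 1 step, 1.01, is so near 1 that this is weaker evidence there. From the authors' comparison come, per the file headers, log2 fold changes, their errors, a score (the test statistic) and p-values, raw and adjusted. In all, 27 rows with date-like names and 2 repeated names held 0.143% of reads.

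The design assumed normalized counts. limma 3.58.1 (R 4.3.3; trend, robust) was fitted to log2(normalized count + 1) of all genes with at least 10 in at least 3 libraries, with Benjamini-Hochberg adjustment over 15258 genes. Ratios used exact two-sided permutation tests. edgeR 4.0.16 and DESeq2 1.42.0 were run on recovered reads as alternatives, beside other pseudocounts, filters, scalings, voom weights, a replicate block and leaving out each library. On simulated data of 15012 genes, known changes were put into a small share of genes. There limma recovered 14.1% of genes changed by 1 and 74.7% of those changed by 2 on the log2 scale. Of its calls, 4.35% were wrong. In the real data 15.7% of genes were called, which sets a looser cutoff on unadjusted p. The simulated shares therefore do not give the recovery in these data. The labels name no molecular identifiers, so reads need not be separate molecules. Named genes are the 8 members, genes of the pathway lists and the 3 genes most like a called member. Members and lists were chosen with earlier results of these data known. Apela and Trbc2, also listed, were not analysed here.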

Additional observations from a re-analysis of the deposited data

Results flagged for a closer look

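Among 11 sets of 4 control values checked on the log2 scale (the 8 genes and 3 ratios), 1 had a library far from the rest. Pgf in control 3, at 181 normalized counts against 213 to 220.2 in the other controls, lay 0.841 of the group's range from its neighbour, above the 95% critical value of Dixon's test for 4 values. Chance flags about 1 in 20 such sets. Pgf in control 3 was still above all 3 ICI-myocarditis libraries, and without that library the log2 fold change was -0.82 (limma adjusted p = 0.0949).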

How the results depend on the processing

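All 8 members kept their sign in 18 alternatives except Angpt1 and Angpt2. Members called numbered 1 in the principal analysis, 5 with DESeq2 (6 at an unadjusted p below 0.05), 3 with voom weights, and 0 with edgeR (5 at an unadjusted p below 0.05), with no filter (5) and with scaling by library size only (3). Leaving out 1 library gave 0 to 2. The 5 DESeq2 calls were Vegfa, Vegfc, Pgf, Apln and Aplnr. Of all 15258 genes tested, 610 were called lower in the principal analysis, 1281 with DESeq2, 1535 with voom weights and 561 with edgeR. With scaling by library size only 335 were called lower, and with no filter 545 of 19549. The share of all genes at an unadjusted p below 0.05 is not given here for these alternatives. Wider pathway genes called numbered 7, 12 with DESeq2, 12 with voom weights and 2 (without ICI-myocarditis 3) to 13 (without control 2 or control 4) with 1 library left out. All tested genes called numbered 2397, 4038 with voom weights, 3441 with DESeq2 and 986 (without ICI-myocarditis 3) to 3340 (without control 2) with 1 library left out. Scaling by library size only moved the median of all genes by 0.13. With 1 library left out, log2 fold changes ran from -0.13 to 0.42 for Angpt1, from -0.53 to 0.23 for Angpt2 and from -0.32 to 0.28 for Flt4. Angpt1 was below 0 without ICI-myocarditis 1 or 2 and without control 1 or 2 (-0.13, -0.12, -0.10 and -0.13), and Angpt2 above 0 without ICI-myocarditis 1 or control 2 (0.23 and 0.10). Flt4 was above 0 with voom weights (0.054), with scaling by library size only (0.088) and without ICI-myocarditis 1, control 1 or control 2 (0.28, 0.16 and 0.07). The Pgf to Vegfb difference was 0.015 with a pseudocount of 5, 0.082 with scaling by library size only and 0.11 with TMM scaling. The scaling factor of a library cancels in a ratio of its genes. The values under the scaling settings therefore moved through the pseudocount and are not an effect of scaling. The Pgf to Vegfb difference ran from -0.29 to 0.30 with 1 library left out (0.28 without control 2, 0.30 without ICI-myocarditis 2). The Angpt2 to Angpt1 difference ran from -0.93 to 0.35 with 1 library left out (0.23 without control 2, 0.35 without ICI-myocarditis 1). The cause of the other changes was not tested. Labels share replicate numbers 1 to 3. Deviations from the group means correlated at r = -0.27, -0.21 and -0.08 between same-numbered libraries. Between libraries of different numbers r ran from -0.48 to 0.45. The same-numbered values lie inside that spread, so they show no pairing and cannot exclude one. With the replicate block, in which control 4 has no partner and adds nothing to the contrast, members called stayed at 1 (Aplnr, limma adjusted p = 0.00693), wider pathway genes called were 10 and all genes 1780. The Epas1 call was lost with the block (-1.30, limma adjusted p = 0.0867). The lowest value of any member was 101 normalized counts (Angpt2, control 4), and counting error was not separated from the spread between hearts.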

Other observations

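Receptors and ligands were also set against the endothelial marker list within each library, a comparison chosen after their values were seen and given as values. The log2 level of Aplnr relative to the mean of that list was -0.43, -0.22, -0.03 and -0.54 in controls and -1.80, -0.10 and -2.35 in ICI-myocarditis. ICI-myocarditis 2 thus lay inside the control range on this scale, and ICI-myocarditis 1 and 3 lay far below it. Kdr was 2.15 ± 0.33 above the list in controls (SD, n = 4) and 1.22 ± 0.30 above it in ICI-myocarditis (SD, n = 3), with no overlap. Tek was 0.47 ± 0.10 and 0.10 ± 0.06 above it, also without overlap. The genes of the list themselves had log2 fold changes from -1.24 to 0.16. Tek (-1.09) lay inside that range, so its fall was not beyond that of every endothelial marker, while Kdr (-1.65) and Aplnr (-1.83) lay below the range. The range is that of the 12 chosen markers only. Of the 11 downstream endothelial genes, Esm1 (-1.68) and Hey1 (-1.54) also lay below it, and the rest did not. Pcdh12 (-1.97), picked for likeness to Aplnr, lay below it too. Angpt2 was -3.84 ± 0.36 and -3.29 ± 0.64 relative to the list, and these ranges overlapped. No test was run on these differences.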
